A study of Mus musculus with 15 samples.

Results

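Regional identity transcription factors are the DNA-binding proteins that lay out the forebrain and midbrain in the embryo and that many adult neurons go on transcribing. The 46 genes described here were taken as a given list of such factors, and all 46 were found among the 32285 genes counted in the 15 dHF libraries. In 29 of them a code for a brain division was read: 6 pallial, 8 subpallial, 6 thalamic and 8 midbrain factors, with the POU factor Pou4f1 read together with Tcf7l2 as the habenular code. The other 17 had no code. Every member was read in each class of nuclei defined by other genes, since the members were kept out of the clustering and out of every list of markers. Genes named for the opposite strand of a member, such as Otx2os1, Dlx6os1 and Lhx1os, were not kept out. They were among the genes most raised in some clusters, so readings of such members there are not fully independent of how the clusters formed.

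The nuclei came from micropunches of the dorsal hippocampal formation (dHF, named dHpc in the labels) of adult female C57BL6/J mice, with 1 library of snRNA-seq per mouse. The groups were 6 virgin nulliparous mice (NP), 4 dams with unstressed reproductive experience (control RE, labelled ControlPP) and 5 dams that were also given limited nesting material and daily separation from their pups during lactation (stress RE, labelled StressPP). RE dams were bred as adults, raised a litter to weaning and had their tissue collected some weeks afterwards. All were wild type, and no transgene or Cre was in use. The punches were cut through sequential sections on both sides and, by the methods of the study, took in some cortex, thalamus and ventral hippocampus, which limits each library as a sample of the dHF alone.

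As background, the telencephalon arises as a pallium, which gives rise to cortex and hippocampus and is patterned by Emx, Lhx2 and Tbr1, and a subpallium, which gives rise to striatum and to interneurons and is patterned by the Dlx homeobox genes. Behind it the diencephalon forms the thalamus, where Gbx2, Lef1 and Tcf7l2 act, and the habenula, whose neurons depend on Pou4f1. In the midbrain and the caudal diencephalon, Gata2, Gata3 and Tal1 direct progenitors towards a GABAergic fate, so that these factors mark a transmitter as well as a place. Dlx genes are also known in the prethalamus, which lies outside the telencephalon. A code is for these reasons a description of which members were transcribed, not an anatomical position.

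Libraries held 5789 to 12738 barcodes and 40602582 to 96211264 UMIs. Of 134019 barcodes, 123913 nuclei were kept. Pairs of libraries shared 6 to 47 barcode sequences over the 105 pairs, and 2211 sequences occurred in more than 1 library. Batch 1 held NP and stress RE mice and no control RE mouse. From the 80 clusters that reached 50 nuclei, 56 of them named from markers, came 40 neuronal classes: 16 named classes and 24 single clusters that no list named. The neuronal classes held 70405 nuclei, 56.8% of those kept. Unnamed clusters are called by the transmitter gene they carried and a number, with G for those of a second clustering of GABAergic nuclei and E for those of a second clustering of Slc17a6 nuclei. Where the genes that led a cluster are given, members are left out of them.

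Gata2, Gata3 and Tal1 belong to the midbrain code and varied together across the 40 neuronal classes, as set out further on, which is why the sequences before their start sites are shown. Each is the 250 bases before an annotated start on GRCm38.p6 (RefSeq), written from 5′ to 3′ on the strand of the gene. Capitals mark a match, here on the opposite strand, to AGATAA, a motif of the GATA family that was searched on both strands.
Gata2, chr6:88193641-88193890, plus strand: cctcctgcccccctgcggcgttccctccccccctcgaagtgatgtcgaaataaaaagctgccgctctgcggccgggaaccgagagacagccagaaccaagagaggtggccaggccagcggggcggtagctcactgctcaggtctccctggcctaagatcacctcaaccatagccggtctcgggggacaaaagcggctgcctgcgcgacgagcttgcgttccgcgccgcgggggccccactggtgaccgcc
Gata3, chr2:9878601-9878850, minus strand: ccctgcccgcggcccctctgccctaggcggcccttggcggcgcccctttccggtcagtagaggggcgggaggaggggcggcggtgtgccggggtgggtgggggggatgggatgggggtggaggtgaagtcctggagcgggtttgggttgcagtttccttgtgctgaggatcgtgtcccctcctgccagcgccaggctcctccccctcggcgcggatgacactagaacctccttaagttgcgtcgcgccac
Tal1, chr4:115056176-115056425, plus strand: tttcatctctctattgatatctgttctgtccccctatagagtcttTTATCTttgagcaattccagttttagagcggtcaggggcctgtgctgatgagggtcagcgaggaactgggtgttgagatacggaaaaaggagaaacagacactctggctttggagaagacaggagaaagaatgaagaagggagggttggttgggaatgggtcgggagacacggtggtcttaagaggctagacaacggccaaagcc

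The Tal1 window shown held 1 match and the Gata2 and Gata3 windows held 0. Tal1 and Gata2 each have a second window, not shown, and both of these held 0. The motif was in 9.99% of all 32851 promoter windows in the table and in 5 of the 64 windows that belong to members, which covered 39 of the 46 genes. A match is a string of letters and not a site.

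The members placed 38 of the 40 neuronal classes in a division. A member was taken as on in a class at a mean of at least 5 CPM (the UMIs of a gene scaled to a common total for each class and mouse) and at least 25% of its own highest neuronal class, and a class was placed by the code with the largest share of its members on. Pallial codes covered 7 classes and 43958 nuclei, 62.4% of neuronal nuclei. This share rests on granule neurons, where Emx1 was at 7.39 CPM: when on meant 10 CPM they were unplaced, and as a mean over mice the pallial share went from 61.9% to 12.2% and the unplaced share from 9.06% to 59.0%. Thalamic codes covered 13 classes and 11386 nuclei (16.2%), subpallial codes 8 classes and 5122 nuclei (7.28%), midbrain codes 9 classes and 2441 nuclei (3.47%), and the habenular code 1 class of 1204 nuclei (1.71%). CA1 and the subiculum, with 6294 nuclei (8.94%), were left unplaced. Of the 46 members, 45 were on in some neuronal class, and Pou4f2 was on in none. The levels that follow come from the nuclei that were clustered, so they are given as a description without a test, as the mean ± SD over those mice in which the class reached 10 nuclei. Where a class is called highest or next for a member, the ranking is among neuronal classes unless other cells are named. Summed immature nuclei pool 2 unlike classes, proliferating progenitors (Gad1 and Gad2 together at 1049 CPM) and neuroblasts or immature neurons (101 CPM). A summed level need not hold for either class, and it depends on the mix of both in each mouse.

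**Figure D1:**
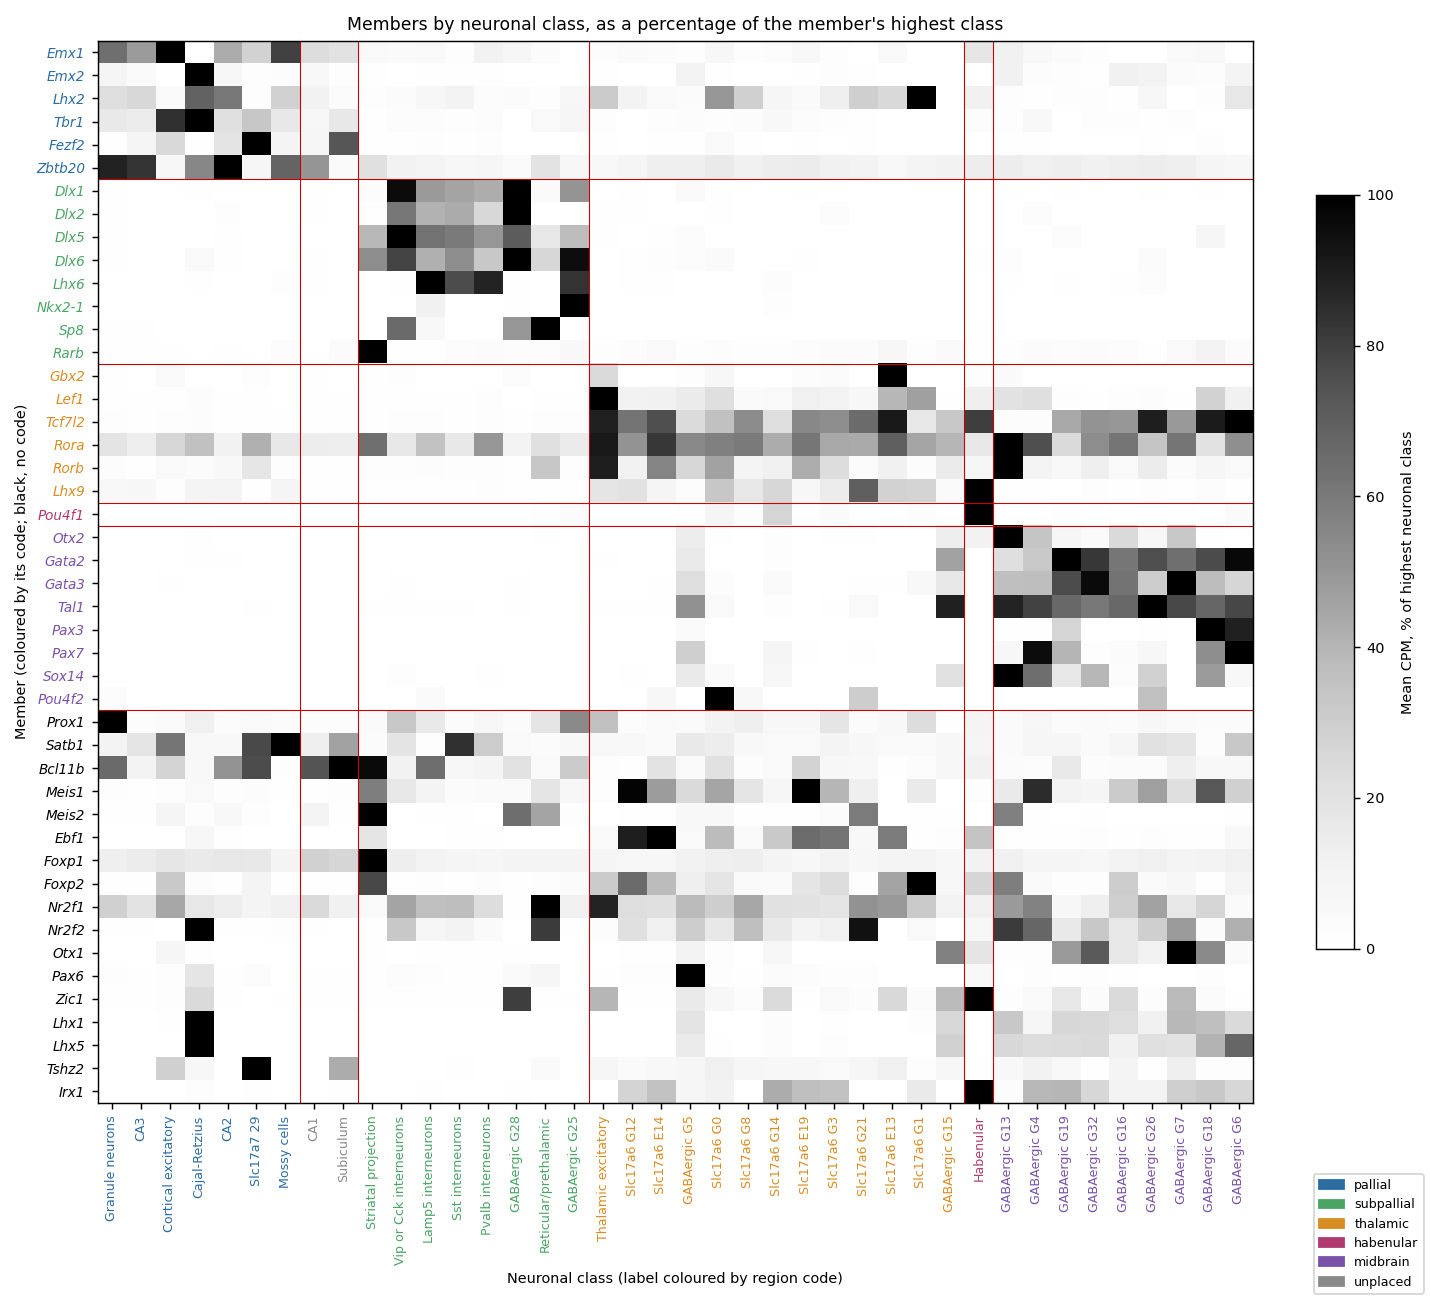
The 46 members (rows) in the 40 neuronal classes (columns), each shown as the mean CPM over mice as a percentage of the highest neuronal class of that member, from white (0) to black (100). Red lines separate the codes and the divisions; the dark squares of the subpallial, habenular and midbrain factors stay largely inside their own block, as the rule that formed the blocks from these members makes likely, while Tcf7l2 and Rora run through the thalamic and midbrain columns alike.

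The pallial factors differed in the excitatory classes in which they were on, although CA3 and mossy cells had the same 3 on, Emx1, Lhx2 and Zbtb20. Emx1, a homeobox gene of the dorsal telencephalon, was low everywhere and was on in 4 classes. It stood at 11.6 ± 6.4 CPM in cortical excitatory neurons (n = 11, lowest 0, median 12.3, highest 21.7), at 9.23 ± 3.7 in mossy cells (n = 12, lowest 5.21, median 9.21, highest 19.3), at 7.39 ± 1.5 in granule neurons (n = 15, lowest 4.84, median 6.88, highest 11.0) and at 5.58 ± 1.3 in CA3 (n = 15, lowest 3.34, median 5.89, highest 8.61). The ranges over mice overlapped between all 4 neighbours in this order.

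Its paralogue Emx2 met the rule for on in Cajal-Retzius cells only, the reelin-secreting neurons of the marginal zone. It stood there at 82.8 ± 34.0 CPM (n = 15, lowest 32.2, median 84.6, highest 155). Granule neurons nevertheless held 44.03% of the UMIs of Emx2, and 60.69% of those of Emx1. In pallial nuclei, when summed, Emx2 was at 6.01 CPM and Emx1 at 6.95 (n = 15 each). The next neuronal class for Emx2 was the unnamed GABAergic cluster G13 at 9.39 ± 6.0 CPM (n = 14, highest 18.9), so the ranges of these classes did not overlap. Emx2 was at 28.9 CPM in summed immature nuclei (n = 15, lowest 0, median 25.6, highest 68.1), a range that overlapped with that of Cajal-Retzius cells. Emx1 and Emx2 were on together in 0 classes. On is set relative to the highest class of each member, so Emx2 was not absent where Emx1 was on. Over the 40 neuronal classes the log2 levels of Emx1 and Emx2 had a Pearson r of 0.09. This and the later correlations across classes are descriptions, since the classes share libraries.

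Cajal-Retzius cells also had the highest level of Tbr1, a T-box factor of early-born glutamatergic neurons, at 74.8 ± 24.1 CPM (n = 15, lowest 22.8, median 71.0, highest 121). Cortical excitatory neurons had Tbr1 at 63.1 ± 18.2 CPM (n = 11, lowest 35.6, median 59.5, highest 95.8), within the same range. Lhx2, the LIM factor that sets up the cortical field, was at 59.4 ± 19.1 CPM in Cajal-Retzius cells and at 52.5 ± 14.3 in CA2 (n = 15 each), but it reached 86.8 CPM in the Slc17a6 cluster G1, which only 1 mouse held at 10 nuclei or more, and 26.9 ± 7.3 in thalamic excitatory neurons (n = 15). Lhx2 was on in 9 classes, 5 of them placed as thalamic.

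Fezf2, a zinc finger factor of subcerebral projection neurons, was on in 2 classes, at 73.2 ± 15.2 CPM in the Slc17a7 cluster 29 (n = 11, lowest 47.7, median 77.7, highest 93.5) and at 53.6 ± 20.6 in the subiculum (n = 13, lowest 33.7, median 45.4, highest 95.7). Cluster 29 led with Vwc2l, Pamr1 and Npsr1 and was placed as pallial through Tbr1 and Fezf2. In single mice with at least 20 of its nuclei it was pallial in 5 of 9 and unplaced in 4. It was also unplaced under 2 of 20 other settings. Zbtb20, a repressor that shapes the hippocampal field, was the most abundant pallial member. Among neuronal classes it was highest in CA2 at 5438 ± 503 CPM (n = 15, lowest 4330, median 5628, highest 5950), then in granule neurons at 4790 ± 322, CA3 at 4533 ± 344, mossy cells at 3675 ± 204, Cajal-Retzius cells at 3004 ± 290 and CA1 at 2729 ± 309 (n = 15, or 12 for mossy cells). Immature nuclei, when summed, had Zbtb20 at 9741 ± 2006 CPM and non-neuronal nuclei at 2885 ± 244 (n = 15 each). Microglia had Zbtb20 at 1741 CPM and also Slc17a7, a gene of excitatory neurons, at 48.6 CPM, and the part of free RNA in these values was not tested. CA1 and the subiculum had 1 pallial member on each, Zbtb20 in CA1 and Fezf2 in the subiculum, and the rule asks for at least 2.

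Subpallial factors divided the GABAergic neurons of the telencephalon. Dlx1, which drives interneuron migration and survival, was on in 6 classes. Among neuronal classes it was highest in the GABAergic cluster G28, with values of 86.6, 91.5 and 106 CPM in 3 mice, and in Vip or Cck interneurons at 90.6 ± 18.8 CPM (n = 15, lowest 58.8, median 90.2, highest 122). Immature nuclei, when summed, had Dlx1 at 128 ± 107 CPM (n = 15). Of all UMIs of Dlx1, 14.96% were in immature nuclei and 14.93% in proliferating progenitors alone. Dlx2, the neighbour of Dlx1 on chromosome 2, followed Dlx1 at a much lower level, 11.7 ± 2.7 CPM in G28, 7.14 ± 3.3 in Vip or Cck interneurons and 18.5 ± 16.6 in immature nuclei. Dlx5 and Dlx6, the linked pair on chromosome 6, were on together in 7 classes. Among neuronal classes Dlx5 was highest in Vip or Cck interneurons at 14.7 ± 7.5 CPM (n = 15, lowest 7.31, median 13.4, highest 37.9) and Dlx6 in G28 at 25.4 ± 9.4 (n = 3). Immature nuclei, when summed, had Dlx6 at 29.2 ± 33.2 CPM (n = 15). The Pearson r across classes was 0.86 for Dlx1 with Dlx2 and 0.95 for Dlx5 with Dlx6. G28, which led with Cpa6, Ano2 and Ano1, also carried Meis2 at 1153 ± 67.7 CPM and Zic1 at 246 ± 40.4 (n = 3).

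Lhx6, the factor of interneurons from the medial ganglionic eminence, was on in 4 classes: Lamp5 at 89.1 ± 24.9 CPM (n = 15, lowest 51.4, median 83.9, highest 130), Pvalb at 78.2 ± 21.3 (n = 14, lowest 40.6, median 80.7, highest 120), Sst, and the GABAergic cluster G25. The ranges of Lamp5 and Pvalb overlapped. Nkx2-1, which acts upstream of Lhx6, was at 67.2 and 69.5 CPM in the 2 mice with at least 10 nuclei of G25. This cluster of 59 nuclei was led by Sfta3-ps, Egfr and Il1rapl2. Lamp5 interneurons came next for Nkx2-1 at 7.69 ± 2.0 CPM (n = 15, lowest 5.22, median 7.76, highest 12.1), without overlap. Within the Lamp5 class the factors told 2 clusters apart: G22 had Lhx6 at 109 CPM and Prox1 at 39.3, while G31 had Lhx6 at 18.8 and Prox1, a homeobox factor of caudal interneurons as well as of granule neurons, at 117.

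Striatal projection neurons reached 10 nuclei in 8 mice. They carried the retinoic acid receptor Rarb at 2103 ± 279 CPM (lowest 1686, median 2120, highest 2575), which no other neuronal class approached. The next of these was the GABAergic cluster G18 at 201 ± 58.2 (n = 7, highest 306). The forkhead factor Foxp1 was at 2969 ± 170 CPM in striatal projection neurons (n = 8, lowest 2752, median 2954, highest 3247), above CA1 at 838 ± 65.3 (n = 15, highest 962). Meis2 reached 1799 ± 93.8 CPM there (n = 8), Bcl11b 595 ± 27.8 and Foxp2 894 ± 72.5. The helix-loop-helix factor Ebf1 separated the 2 large striatal clusters, at 587 CPM in G35 (849 nuclei) and 6.7 CPM in G34 (800 nuclei, with Adora2a among its 3 leading genes). A small striatal cluster of 77 nuclei, G20, reached 10 nuclei in 3 mice. It had less Rarb (748 CPM) and more Foxp2 (2491 CPM) and Tshz2 (297 CPM) than the others, which had Tshz2 at 2.3 to 4.3 CPM.

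Sp8, a zinc finger factor of caudal interneurons, was low, at 5.87 ± 2.9 CPM in Vip or Cck interneurons (n = 15, lowest 0, median 5.38, highest 12.9). Immature nuclei, when summed, had Sp8 at 10.6 ± 12.1 CPM (n = 15). The highest neuronal class for Sp8 was the reticular or prethalamic one at 8.93 ± 12.4 CPM, where the 4 mice ran from 0 to 26.4 around a median of 4.67. That class, named from Six3, Ecel1, Spp1, Isl1 and Ptchd1, was placed as subpallial by Dlx6 and Sp8 alone and changed its placement under 7 of 20 other settings.

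Thalamic factors differed in how far they marked a single class. Lef1, the Wnt effector, was at 852 ± 100 CPM in thalamic excitatory neurons (n = 15, lowest 693, median 838, highest 1030), and 84.7% of its UMIs lay in classes placed as thalamic. The next class for Lef1, the Slc17a6 cluster G1, was at 397 CPM in the 1 mouse with at least 10 of its nuclei. Gbx2, needed for thalamic axons, was on only in the Slc17a6 cluster E13, at 8.84 ± 5.1 CPM (n = 8, lowest 0, median 9.24, highest 15.4), a cluster of 177 nuclei that led with Bmpr1b, Calb2 and Glra3. All 8 markers of thalamic excitatory neurons were detected in E13, but it was left unnamed because markers of other lists stood among its leading genes. Thalamic excitatory neurons had Gbx2 at 2.12 ± 0.94 CPM (n = 15, lowest 0.650, median 2.26, highest 3.74), and the ranges overlapped.

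Tcf7l2, a Wnt effector related to Lef1, was on in 18 classes and so did not single out the thalamus. Its mean was 1021 ± 164 CPM in the GABAergic cluster G6 (n = 3), 906 ± 92.2 in thalamic excitatory neurons (n = 15, lowest 789, median 914, highest 1066) and 819 ± 133 in habenular neurons (n = 12, lowest 629, median 793, highest 1046). Neighbours in this order overlapped. The nuclear receptor Rora was on in 26 classes, at 4347 ± 515 CPM in the GABAergic cluster G13 (n = 14, lowest 3540, median 4305.5, highest 5392) and 3977 ± 500 in thalamic excitatory neurons (n = 15, lowest 2757, median 3984, highest 4956). Its relative Rorb followed the same order, with 576 ± 97.7 CPM in G13 and 516 ± 57.5 in thalamic excitatory neurons.

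The breadth of Tcf7l2 and Rora bears on how the 13 thalamic placements are to be read. Rora was on in all 13 and Tcf7l2 in 10, but Tcf7l2 and Rora were also on in 7 of the 9 midbrain classes each, whereas Lef1 was on in 3 of the 13 and Gbx2 in 1. Of the Slc17a6 clusters placed as thalamic, 7 carried Ebf1, led by E14 at 1751 ± 158 CPM (n = 14, lowest 1500, median 1789, highest 1969) and G12 at 1568 ± 170 (n = 14, lowest 1298, median 1591, highest 1958), and 5 carried the Iroquois factor Irx1. E14 led with Tfap2d, Ebf3 and Glra3. Thalamic excitatory neurons, the class named from thalamic markers, had neither Ebf1 nor Irx1 on. The Slc17a6 clusters placed as thalamic had 0 midbrain members on, and Gata2, Gata3 and Tal1 of that code also mark a GABAergic fate. The placement of these clusters says that thalamic members outnumbered the others by share, and no more.

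Within the 13 clusters of thalamic excitatory neurons the code was kept, since all 13 were placed as thalamic on their own, but its members varied. Foxp2 ran from 4.5 CPM in cluster E17 to 1462 in E21, Lef1 from 184 in E21 to 1147 in E5, and Rora from 1751 in E21 to 6219 in E5. Rorb was lowest in E21 at 41.7 CPM and highest in E17 at 862. Gbx2 reached 9.7 CPM in E10 alone, with the other 12 clusters between 0.0 and 3.3.

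Habenular neurons were placed by Pou4f1 and Tcf7l2. Pou4f1, on chromosome 14 at 104461676 to 104467999 of GRCm38, was at 126 ± 21.9 CPM in the habenular class (n = 12, lowest 90.4, median 134, highest 153). The class contributed 75.9% of all 1873 UMIs of Pou4f1. The next class was the Slc17a6 cluster G14 at 33.8 ± 28.2 CPM (n = 10, lowest 10.5, median 23.5, highest 95.7), which overlapped with it and in which Tcf7l2 was not on. G14 was for this reason placed as thalamic, and it changed its placement under 6 of the 20 other settings. Pallial nuclei, when summed, had Pou4f1 at 0.189 CPM and microglia had it at 0.68.

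Lhx9, a LIM factor of the caudal forebrain, was also highest in habenular neurons at 192 ± 37.1 CPM (n = 12, lowest 153, median 173, highest 258), followed by the Slc17a6 cluster G21 at 134 ± 32.6 (n = 8, lowest 79.9, median 132, highest 177). Zic1, a zinc finger factor of the dorsal midline, was at 307 ± 88.6 CPM (n = 12, lowest 164, median 308, highest 450), and Irx1 at 31.8 ± 9.8 (n = 12, lowest 9.87, median 31.3, highest 47.4), both highest in the habenula among neurons. All 4 habenular clusters were placed as habenular on their own. They differed in Otx2, at 0.4 CPM in cluster E18 against 26.9 to 43.8 in E7, E8 and E9, and in Rora, at 1531 CPM in E18 against 464 to 516. Foxp2 was 18.2 CPM in E7 and 265 to 393 in the other 3, and Ebf1 ran from 157 CPM in E18 to 879 in E9.

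Midbrain factors were found in small GABAergic clusters that no marker list named. Gata3 was highest in cluster G7 at 135 ± 31.6 CPM (n = 11, lowest 84.0, median 139, highest 186) and in G32 at 130 ± 32.7 (n = 12, lowest 89.7, median 122, highest 190). Tal1, its helix-loop-helix partner, was at 54.6 ± 16.0 CPM in G26 (n = 13, lowest 33.5, median 49.3, highest 79.2), and Gata2 at 19.5 ± 9.1 in G19 (n = 11, lowest 3.42, median 21.9, highest 31.7). Across the 40 classes the Pearson r was 0.94 for Gata2 with Gata3, 0.95 for Gata3 with Tal1 and 0.95 for Gata2 with Tal1, and Gata3 and Tal1 were on together in 9 classes. Outside neurons the 3 parted: Gata2 was at 83.8 ± 22.6 CPM in endothelial cells and Tal1 at 62.1 ± 13.3 in microglia (n = 15 each), while Gata3 reached 7.2 ± 6.4 in the choroid plexus (n = 13) as its highest class of glia or other non-neuronal cells.

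The homeobox factors split these clusters into sets. Otx2 was at 208 ± 44.4 CPM in G13 (n = 14, lowest 143, median 195, highest 293), without overlap with the next neuronal class, G4, at 69.9 ± 28.7 (n = 9, lowest 36.0, median 66.3, highest 120). Otx2os1, which was not kept out of the clustering, was the first leading gene of both clusters. Sox14, an SRY-box factor of caudal diencephalic and midbrain GABAergic neurons, was highest in the same clusters, at 65.6 ± 20.8 CPM in G13 and 42.1 ± 35.2 in G4. Pax3 marked others, G18 at 734 ± 59.1 CPM (n = 7, lowest 670, median 715, highest 834) and G6 at 540, 600 and 819 in 3 mice, and was on with Otx2 in 0 classes. Pax7 was at 74.2 ± 37.6 CPM in G6 (n = 3) and 70.8 ± 21.2 in G4 (n = 9), and the r of Pax3 with Pax7 was 0.88.

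Pou4f2, a factor of retinal and collicular neurons, had 49 UMIs in all 15 libraries and a mean of 2.20 ± 3.4 CPM in its highest class, the Slc17a6 cluster G0 (n = 9, median 0, highest 9.96), so a pattern was not detectable at this depth. The GABAergic clusters G5 and G15 had equal numbers of thalamic and midbrain members on, 2 and 2, and went to the thalamic code only because it has 6 members and the midbrain code 8. In single mice with at least 20 nuclei, G5 was placed as thalamic in 4 of 10 and as midbrain in 5.

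The 17 members with no code cut across the divisions. Among neuronal classes Prox1 was highest in granule neurons at 326 ± 22.4 CPM (n = 15, lowest 271, median 327, highest 359) and next in G25 at 143 and 210 CPM in 2 mice. It was higher, at 892 ± 93.2 CPM, in neuroblasts or immature neurons (n = 14). Satb1, a chromatin organiser, was highest in mossy cells at 338 ± 22.2 CPM (n = 12, lowest 301, median 341, highest 375) and next in Sst interneurons at 285 ± 66 (n = 15). Bcl11b, a zinc finger factor of corticospinal and striatal neurons, was as high in the subiculum (619 ± 111 CPM, n = 13) as in striatal projection neurons (595 ± 27.8, n = 8), with overlapping ranges. Tshz2 was at 4163 ± 469 CPM in the Slc17a7 cluster 29 (n = 11, lowest 3752, median 3986, highest 5258) and at 1778 ± 309 in the subiculum (n = 13, highest 2328), without overlap.

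Among the homeobox and nuclear receptor genes without a code, Meis1 was highest among neurons in E19 (93.2 ± 33.8 CPM, n = 12) and G12 (92.1 ± 25.6, n = 14) and was below these in striatal projection neurons, the highest class of Meis2. Nr2f1, an orphan nuclear receptor graded across cortex, was at 78.8 ± 22.3 CPM in the reticular or prethalamic class (n = 4, with a lowest of 54.5 and a highest of 106) and 69.1 ± 10.0 in thalamic excitatory neurons (n = 15), while Nr2f2 was at 172 ± 32.9 in Cajal-Retzius cells (n = 15) and 162 ± 29.7 in G21 (n = 8). The paired-box factor Pax6 was on in a single class, G5, at 48.2 ± 25.8 CPM (n = 14, lowest 4.90, median 53.9, highest 89.1), followed by Cajal-Retzius cells at 8.89 ± 7.0 (n = 15), and 72.8% of its UMIs were in astrocytes, at 85.1 ± 28.0 CPM. Otx1 was highest in G7 at 40.3 ± 14.8 CPM (n = 11) and G32 at 28.9 ± 10.2 (n = 12).

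Lhx1 and Lhx5, paralogous LIM factors, had the closest pattern of the pairs compared, with an r of 0.97. Both were highest in Cajal-Retzius cells, Lhx1 at 134 ± 55.1 CPM (n = 15, lowest 38.1, median 136, highest 227) and Lhx5 at 76.3 ± 25.2 (n = 15, lowest 22.8, median 78.1, highest 120), and next in a midbrain cluster, G7 for Lhx1 at 51.9 ± 29.0 (n = 11) and G6 for Lhx5 at 51.0 ± 24.8 (n = 3). Beside the pairs already given, the r was 0.68 for Lhx2 with Lhx9, 0.64 for Rora with Rorb and 0.62 for Otx1 with Otx2, and it was lower for Nr2f1 with Nr2f2 (0.38), Meis1 with Meis2 (0.06) and Foxp1 with Foxp2 (0.01).

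The share of a member's UMIs that lay in the division it stands for is given as a description, since the members of a code placed the classes and a high share follows in part from that rule. For Gata3, 74.5% of UMIs were in classes placed as midbrain, for Sox14 76.6%, for Lhx6 86.2% in subpallial classes and for Gbx2 79.1% in thalamic classes. Otx2 had 53.7% of its UMIs in non-neuronal cells, with 35.9% in the choroid plexus, at 343 ± 63.3 CPM (n = 13). Meis1 had 76.5% there, with 49.1% in oligodendrocytes. Rorb had 37.3% in astrocytes, at 1369 ± 150 CPM. Dlx1, Dlx2 and Sp8 had 14.9%, 18.7% and 22.2% of their UMIs in proliferating progenitors.

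Placements were mostly alike between mice. In mice with at least 20 nuclei of a class, the placement was that of the pooled class in 291 of 317 cases (91.8%): 9 of 9 for the habenula, 66 of 67 for subpallial classes, 80 of 88 for thalamic, 70 of 78 for pallial, 43 of 49 for midbrain and 23 of 26 for unplaced classes. Granule neurons held 4 clusters, all placed as pallial. Cluster 2 among them (3823 nuclei, median of 1048 UMIs against 7284 to 9568 in clusters 0, 1 and 3) had Tcf7l2 at 90.5 CPM, Lef1 at 72.7 and Ebf1 at 60.0, where the other 3 had 8.4 to 10.1, 4.5 to 5.4 and 3.1 to 3.5. Depth moved with these levels, and its part was not tested.

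Whether reproductive experience or stress altered the make-up of the punch was read from the share of kept nuclei in each division. No share passed the exact permutation test over mice after adjustment over 15 tests, with the smallest adjusted p at 0.333. The smallest unadjusted p that the mice allow is 0.00952 for control RE against NP, 0.00433 for stress RE against NP and 0.0159 for stress RE against control RE, so after adjustment over 15 tests a single share could not have passed even with groups fully apart. Habenular nuclei had the smallest unadjusted p, although the pallial difference was larger in percentage points. The habenular share in NP mice ran from 0.190% to 4.79% with a median of 2.00%, while control RE mice had 0, 0, 0.280% and 0.289% and stress RE mice 0, 0.140%, 0.166%, 1.02% and 1.08%. NP mice overlapped with control RE mice through NP mouse 35, at 0.190%, and with stress RE mice through the NP mice 35 and 27, the latter at 0.885%. A count of 0 allowed a share of up to 0.0309% and 0.0285% in the control RE mice 72 and 87 and 0.0345% in the stress RE mouse 90, for counting error only. The mean was 2.10 percentage points lower in control RE than in NP mice (two-sided exact permutation p = 0.0286, adjusted p = 0.333), with -1.75 in batch 2 and -3.01 in batch 3, and 1.76 points lower in stress RE than in NP mice (exact permutation p = 0.0519, adjusted p = 0.333).

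Shares of the other divisions overlapped between groups in every contrast. Pallial nuclei made up 29.0% to 37.4% of NP libraries (median 34.1%) and 35.2% to 44.7% of control RE libraries, a difference of 5.11 points (exact permutation p = 0.0667, adjusted p = 0.333) that was 9.59 in batch 2, 0.377 in batch 3 and 3.06 without control RE mouse 88. Subpallial nuclei were 2.00% to 10.9% in stress RE mice and 2.46% to 3.15% in control RE mice, a difference of 2.73 points (exact permutation p = 0.111, adjusted p = 0.417) that was 1.40 without stress RE mouse 75. Thalamic nuclei ran from 5.63% to 17.1% in NP mice and midbrain nuclei from 0.368% to 4.54%, so that libraries of 1 group differed widely in these shares. How the punch was cut and the state of the animal cannot be told apart in these shares.

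In the whole punch, the UMIs of each library were summed over all barcodes and tested with the quasi-likelihood test of edgeR over 21512 genes, of which 45 were members (all but Pou4f2). In summed counts, fewer cells of a type and less RNA per cell cannot be told apart. No member passed in any contrast after Benjamini-Hochberg adjustment. In control RE against NP mice 0 of 45 members were called, where 0.00465% of all genes were, and in the other 2 contrasts 0 of 45, where 0% were. At an unadjusted p under 0.05 there were 6 of 45 members in that contrast (3.68% of all genes), 8 of 45 in stress RE against NP (3.68%) and 4 of 45 in stress RE against control RE (0.865%). DESeq2 also called 0 members (0.102%, 0.00465% and 0% of all genes), with 7, 8 and 4 at an unadjusted p under 0.05 (4.04%, 4.19% and 0.911% of all genes). In control RE against NP mice, the fitted level was lower for 36 of 45 members, with 53.8% of all genes lower, and the median log2 difference of the members was -0.31, with -0.02 over all genes tested. For stress RE against NP it was lower for 25 of 45 (50.3% of all genes, medians -0.14 and 0.00), and for stress RE against control RE for 9 of 45 (47.7%, medians 0.15 and 0.01). The last count depended on batch: it was 18 of 45 with batch as a term (49.8% of all genes, medians 0.06 and 0.00) and 19 of 45 without batch 1, which held no control RE mouse (55.4%, medians 0.03 and -0.02). Between control RE and NP mice 31 and 30 of 45 were lower in these fits (54.3% and 49.5% of all genes, member medians -0.23 and -0.23), and between stress RE and NP mice 28 and 27 of 45 (52.9% and 53.6%, member medians -0.11 and -0.09). The contrasts are not independent, since each group of mice enters 2 of them. Control RE mice enter control RE against NP and stress RE against control RE with opposite sign.

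The 5 members with the smallest p in control RE against NP mice were Zic1, Irx1, Otx2, Pou4f1 and Lhx9, of which none passed. Zic1 was at 23.7 to 46.6 CPM in NP mice (median 38.9) and at 15.0, 15.0, 19.0 and 22.6 in control RE mice, so the groups did not overlap. The fitted log2 difference for Zic1 was -0.96 (SE 0.25, edgeR adjusted p = 0.935), with -0.84 in batch 2 and -0.96 in batch 3. Pou4f1 was at 0.425 to 6.32 CPM in NP mice (median 4.25) and 0, 0.474, 0.485 and 0.601 in control RE mice. The groups overlapped through NP mouse 35, the library with the lowest habenular share of its group, and the fitted log2 difference of Pou4f1 was -3.27 (SE 0.99, edgeR adjusted p = 0.935).

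Irx1 was at 0.607 to 2.99 CPM in NP mice (median 2.51) and at 0.525, 0.611, 1.01 and 1.07 in control RE mice, a log2 difference of -1.38 (SE 0.38). Otx2 was at 5.67 to 11.9 CPM in NP mice (median 6.14) and 2.36, 2.56, 3.69 and 5.79 in control RE mice, a log2 difference of -0.89 (SE 0.26), with -1.26 in batch 2 and -0.41 in batch 3. Lhx9 was at 9.40 to 22.7 CPM in NP mice (median 18.1) and 9.65 to 12.1 in control RE mice, a log2 difference of -0.56 (SE 0.24). The edgeR adjusted p was 0.935 for each of the 3. Pou4f1, Zic1, Irx1 and Lhx9 were the members highest in habenular neurons among neuronal classes. Habenular nuclei held 75.9% of the UMIs of Pou4f1, but 29.6% of those of Irx1, 15.8% of Lhx9 and 14.8% of Zic1. Classes placed as thalamic held 53.5% of the UMIs of Zic1 and 42.4% of those of Lhx9, and non-neuronal nuclei 30.8% of those of Irx1. The share of habenular nuclei was also lower on average in the control RE libraries, and its part in these differences was not tested.

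Between stress RE and NP mice, Irx1 had the smallest p, at 0.684, 0.700, 0.967, 1.33 and 1.45 CPM in stress RE mice and a log2 difference of -1.04 (SE 0.35, edgeR adjusted p = 1.00). Sp8 was at 0.116 to 0.214 CPM in NP mice and at 0.0961, 0.142, 0.291, 0.608 and 0.672 in stress RE mice, a log2 difference of 1.06 (SE 0.40). Zic1 differed by -0.57 (SE 0.23), with -1.06 in batch 2 and 0.05 in batch 3, and Tcf7l2 by -0.47 (SE 0.21), with -0.87 and -0.03. Emx1 was at 3.72, 3.86, 4.05, 4.51 and 5.22 CPM in stress RE mice and 3.09 to 3.87 in NP mice, a log2 difference of 0.35 (SE 0.14), with 0.45 in batch 2 and 0.01 in batch 3.

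Between stress RE and control RE mice, the 5 members with the smallest p were all subpallial factors: Sp8, Dlx6, Nkx2-1, Dlx1 and Dlx2, with log2 differences of 1.26 (SE 0.45), 1.32 (SE 0.54), 0.98 (SE 0.41), 0.73 (SE 0.31) and 0.80 (SE 0.42). For Dlx6 the stress RE mice had 0.528, 0.832, 1.23, 2.65 and 4.68 CPM and the control RE mice 0.619, 0.726, 0.789 and 0.897. For Dlx1 they had 2.85, 3.6, 3.82, 6.20 and 8.71 CPM against 2.20, 2.53, 3.09 and 4.08. Without stress RE mouse 75 the log2 difference was 0.78 for Dlx6 and 0.63 for Nkx2-1, and without stress RE mouse 77 it was 0.45 for Dlx1 and 0.48 for Dlx2. In Dlx6 and Dlx1 the high values came from the stress RE mice 75 and 77, and the groups overlapped. These were also the mice with the highest subpallial shares of their group, and the part of that share was not tested.

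Within classes the members were tested on counts summed per mouse and class. In control RE against NP mice, 37 classes gave 555 tests of members and 0 calls by edgeR (0% of all tests in these classes), with 36 at an unadjusted p under 0.05 (6.49%, and 3.35% over all genes). In stress RE against NP mice, 594 tests gave 0 calls (0.00104% of all tests), with 57 unadjusted (9.60%, and 3.73%), and in stress RE against control RE mice 569 tests gave 0 (0.00106%), with 22 unadjusted (3.87%, and 2.88%). DESeq2 called 0 members in each (0.00073%, 0.00138% and 0.0177% of all tests), with 35, 49 and 17 unadjusted (6.31%, 8.25% and 2.99%, and 2.28%, 2.65% and 1.82% over all genes). With no filter on low counts edgeR called 6 of 1434, 5 of 1516 and 5 of 1463 pairs of a member and a class (0.025%, 0.0398% and 0.0636% of all tests). Some of these pairs had passed the filter and were not called there: for stress RE against NP mice, Rarb in Lamp5 interneurons had an edgeR adjusted p of 0.968 with the filter and 1.09e-06 without it, and Zbtb20 in Pvalb interneurons 0.790 and 3.38e-05. Other pairs, such as Meis2 in Lamp5 interneurons, were below the filter. CA1 had markers of another class among its leading genes and is compared here as cluster 21.

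A class was compared only where each group had at least 3 mice with 10 or more of its nuclei, a minimum that habenular neurons met for stress RE against NP mice alone. No member passed there. The log2 difference of Pou4f1 was 0.06 (95% interval -0.30 to 0.43), that of Tcf7l2 0.10 (-0.27 to 0.47), that of Zic1 0.02 (-0.45 to 0.50) and that of Irx1 -0.05 (-0.56 to 0.46). Of 21 members tested there, the smallest p belonged to Tshz2, at a log2 difference of 0.87 (SE 0.37, edgeR adjusted p = 1.00).

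Zic1 was low in hippocampal classes and did not pass in them. In granule neurons (3.33 ± 2.1 CPM over all mice) it differed by -1.14 on the log2 scale between control RE and NP mice (SE 0.33, edgeR adjusted p = 0.953). In CA1 cluster 21 Zic1 (2.34 ± 1.6 CPM) differed by -1.58 between stress RE and NP mice (SE 0.46, edgeR adjusted p = 1.00). Habenular and thalamic nuclei, where Zic1 was 307 and 87.7 CPM, also made up less of the RE libraries on average. For thalamic nuclei this did not hold within batch 3, where the difference from NP mice was 1.36 points for control RE and 1.95 for stress RE mice, against -4.67 and -5.57 in batch 2. The part of free RNA in these values was not tested. In thalamic excitatory neurons, where Zic1 and Tcf7l2 were on, 0 of 22 members reached an unadjusted p under 0.05 in edgeR in any of the 3 contrasts, where 1.75%, 2.71% and 0.939% of the 14168 genes tested there did.

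The smallest p of all belonged to Ebf1 in oligodendrocytes, with a log2 difference of -1.71 between stress RE and NP mice (SE 0.41, edgeR adjusted p = 0.995). In the other contrasts it belonged to Zbtb20 in the GABAergic cluster G26, higher by 0.71 in control RE than in NP mice (SE 0.19) and lower in stress RE than in control RE mice by -0.72 on the log2 scale (SE 0.20), both with an adjusted p of 1.00. The 40 other patterning factors fixed as a list beside the members, such as Neurod2 and Shox2, gave 27 tested genes in the whole punch and 0 calls by edgeR in the 3 contrasts, with 6, 4 and 3 at an unadjusted p under 0.05 (3.68%, 3.68% and 0.865% of all genes). DESeq2 called 1 of them, Zic4, in control RE against NP mice, where it called 0.102% of all genes.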

How the data were processed

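For each of 15 mice the authors deposited a table of whole-number UMI counts per nucleus for 32285 genes, with barcode and gene lists, made with Cell Ranger (7.0.0 per the file headers, 7.1.0 per the labels) against mm10 (GRCm38) and neither normalized nor corrected for free RNA or doublets. A barcode was dropped if it had fewer than 200 genes or if more than 5% of its UMIs were mitochondrial (at most 58 per library), and those scored highest by Scrublet (scanpy 1.11.5) were removed at 0.8% per 1000 barcodes. Log counts per 10000, 2000 variable genes without the members, a graph of 15 neighbours in 30 principal components and the Leiden method at resolution 1 (igraph 0.11.9) served for clustering, and GABAergic and Slc17a6 nuclei were clustered again. A cluster was named at 3 or more detected markers and a mean log2 fold of at least 2, unless its leading genes held more markers of other lists than of its own (at least 2), cut-offs set after the clusters were seen. Levels are CPM, computed from the summed counts of a class in a mouse.

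Groups and batches came from the labels, and nothing says that libraries share animals. Shares were compared with exact permutation tests, and summed counts with edgeR 4.0.16 (R 4.3.3) in 1 fit of 15 mice, DESeq2 1.42.0 being the alternative. The edgeR step was tested on simulated data. The members, codes, lists and tests were chosen with earlier results of these data known. Named were all members by class, and in each whole-punch contrast the 5 with the smallest p.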

Additional observations from a re-analysis of the deposited data

Results flagged for a closer look

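In groups of 4 to 10 mice, 4 of 63 groups of values (6.35%) held a mouse that stood far from its group by Dixon's gap, where chance alone marks about 1 in 20 groups. NP mouse 35 had a subpallial share of 7.62% of kept nuclei, with the next NP mouse at 3.31% and the lowest at 1.53%. The same mouse had Dlx6 in the whole punch at 2.29 CPM, with the next NP mouse at 0.918 and the lowest at 0.55. NP mouse 27 had Otx2 in the whole punch at 11.9 CPM, with the next at 6.55 and the lowest at 5.67. In the Slc17a6 cluster G0, mouse 27 also had Pou4f2 at 9.96 CPM among 9 mice, with the next at 4.86 and the lowest at 0, in a gene with 49 UMIs in all.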

How the results depend on the processing

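The division of neuronal nuclei moved with the cut-offs of the rule for pallial and unplaced classes. As a mean over mice, 61.9% of neuronal nuclei were pallial and 9.06% unplaced. These became 12.2% and 59.0% when on meant 10 CPM, 70.3% and 2.23% at 10% of the highest class, 54.4% and 20.4% at 50%, and 71.0% and 0% when codes were scored by mean log2 fold. Of the 40 classes, 22 kept their placement under all 20 settings (5 other cut-offs or scorings and 15 sets without 1 mouse). Other values of this kind, 130 in all, moved by less than the spread over mice.

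The adjusted p of the shares ran from 0.179 to 1 over the alternatives, which says nothing about stability, since a single share could not pass in this design. The difference between stress RE and control RE mice changed sign without batch 1 for the thalamic (-0.150 points) and midbrain (-0.338) shares, and on the log2 scale (-0.0136 and -0.195). Leaving out 1 mouse at a time changed the sign of 5 differences: thalamic (-0.418 to 1.53) and midbrain (-0.338 to 0.470) for stress RE against control RE, pallial (-0.230 to 4.34) and midbrain (-0.839 to 0.0190) for stress RE against NP, and subpallial (-0.934 to 0.285) for control RE against NP. The cause was not tested. The other 213 values kept their direction.

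The number of members called in the whole punch stayed at 0 under DESeq2, other size factors, no filter, a batch term, kept nuclei only, and without batch 1 or any 1 mouse. The 15 named differences kept their direction in all 240 alternative fits, with adjusted p from 0.115 to 1. Within classes, dropping the filter on low counts called 6, 5 and 5 pairs of a member and a class in control RE against NP, stress RE against NP and stress RE against control RE (0.025%, 0.0398% and 0.0636% of all tests), among genes such as Meis2 and Rarb in Lamp5 interneurons with 174 and 222 UMIs over all mice; with the filter the numbers were 0. No paired analysis was possible because no mouse or mouse number recurs between groups.

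Low counts limit Pou4f2 (49 UMIs), Nkx2-1 (158), Sp8 (221) and Gbx2 (316), and classes under 100 nuclei rest on 1 to 3 mice.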

Other observations

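Other patterning factors from the list kept beside the members, named here after their values were seen, added detail to the classes as description only. Their rankings are among neuronal classes. Lmx1a, a LIM factor of the cortical hem and roof plate, was at 63.2 ± 23.3 CPM in Cajal-Retzius cells (n = 15, lowest 29.8, median 67.7, highest 103) and at 1.72 ± 2.9 in mossy cells, the next neuronal class. Outside neurons, Lmx1a was among the leading genes of the choroid plexus. Irx2 was highest in habenular neurons at 65.0 ± 13.3 CPM (n = 12, lowest 47.9, median 63.6, highest 84.7), as its relative Irx1 was. Irx3 and Irx5 were highest in the Slc17a6 cluster G12, at 11.3 ± 4.8 and 22.9 ± 11.4 CPM (n = 14). Foxb1, a forkhead factor of the diencephalon, was at 48.0 ± 15.7 CPM in G21 (n = 8), without overlap with G8 at 14.2 ± 7.7 (n = 7, highest 23.9).

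Nkx2-2 was at 36.0 and 37.1 CPM in the 2 mice with at least 10 nuclei of the GABAergic cluster G15. Its next neuronal class, G19, had 2.28 ± 3.2 (n = 11, highest 8.49). Factors of the hindbrain and of the midbrain floor were near 0 in neurons: the highest class mean was 0.0141 CPM for Hoxa5, 0.0219 for En1 and 0.0721 for Foxa1.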
